A study of Mus musculus with 2 samples.

Results

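The 10 cardiac fibroblast genes examined form 2 sets of 5, measured in hearts of mice with a constricted aorta. The activated set held Postn, Cthrc1, Lrrc15, Cilp and Meox1, and the resident set held Dpep1, Scara5, Pi16, Tcf21 and Pdgfra. All 10 were found by symbol in the GENCODE M21 annotation among the 55401 gene identifiers of the count tables, and 9 reached 1 CPM (CPM being a gene's count relative to the scaled number of counts in genes) in at least 1 library. The members were chosen by gene symbol with the ratios between these same libraries known, so their ratios are given as a description.

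RNA sequencing was done on hearts of C57BL/6 mice. The dioscin library came from mice with transverse aortic constriction (TAC), a surgical narrowing that loads the left ventricle with pressure, given dioscin, a plant steroidal saponin, with 4 weeks stated in the design. The TAC library came from mice with the same surgery and, by its treatment label, no dioscin, although the treatment protocol is worded alike for both samples. There was 1 library per group, the labels do not say from how many hearts, and a heart without surgery was not analysed here. No replicate check was therefore possible, and intervals below cover counting error only, since PCR copies and differences between mice were not measured.

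Fibroblasts of the healthy heart derive largely from the epicardium, express the receptor PDGFR-alpha and the transcription factor TCF21, and maintain the matrix. Under pressure load, signals such as TGF-beta drive part of them into an activated state that secretes collagen, periostin and other matrix proteins. Genes of that state and genes of the resting state are often used as paired readouts of fibrosis.

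The dioscin library held 17612259 counts in genes and the TAC library 16782741, of which mitochondrially encoded genes took 25.5% in the dioscin library and 31.6% in the TAC library. The 10 members together took 0.0549% of the gene counts in the dioscin library and 0.0361% in the TAC library. Genes at 1 CPM or more in either library were called higher or lower with dioscin if they differed at least 2-fold and the 95% counting interval of the ratio excluded 1. This size rule, which is no test of the treatment, called 10.5% of the 15697 genes at that level higher and 8.78% lower. Genes called higher made up 54.6% of all calls, but 35.9% when libraries were scaled without mitochondrial counts and 18.8% when they were scaled to 5 pan-fibroblast genes. The dioscin library also differed in tissue markers. All 6 measured atrial muscle markers of 7 listed were higher. The list summed to 17549 CPM in the dioscin library and 593.6 CPM in the TAC library, where Mybphl and Bmp10 were at 0 counts. Both sums were mostly Nppa, named after its values were seen, at 12663 CPM in the dioscin library and 588 CPM in the TAC library. Sln had 12433 counts in the dioscin library and 1 in the TAC library. In the same order Myl7 had 30109 and 13 counts, and Myl4 33721 and 55. Of 10 mesothelial and epicardial markers 9 were higher, with sums of 221.6 CPM in the dioscin library and 20.8 CPM in the TAC library, where Krt8 and Krt18 were at 0 counts. Of the 6 measured valve and tendon-like markers among 10 listed, 4 were higher, with sums of 149 CPM in the dioscin library and 19.6 CPM in the TAC library, and Kera was at 0 counts in both and Tnmd in the TAC library. Of the 6 measured adipocyte markers among 8 listed, 5 were higher, with sums of 2607 CPM in the dioscin library and 1345 CPM in the TAC library that were mostly Fabp4, which endothelium also expresses. Lep was at 0 counts in both libraries and Cidec, Plin1 and Retn in the TAC library. Ventricular muscle markers, with 0 of 8 higher and 1 lower, summed to 50584 CPM in the dioscin library and 45895 CPM in the TAC library, mostly from Myh6, Tnnt2 and Tnni3, which atrial muscle also expresses. Within this list the ratio of Irx4, a ventricular transcription factor gene, was 0.238, which made it the lower gene. Myl3 had a ratio of 1.58, and Myl2 and Myh7, named after their values were seen, had ratios of 0.785 and 0.757. Myl2 also gave a large part of the sums, at 6907 CPM in the dioscin library and 8800 CPM in the TAC library. Endothelial and macrophage lists each had 2 of 8 genes higher and 1 lower. The part of these tissue differences in the fibroblast values was not tested.

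Promoter sequences are shown for 3 members, Lrrc15 and Dpep1 because they lay at the low and high ends of the ratios, and Postn because it was the most abundant activated gene in counts. Windows of 300 bases, from 250 before to 50 after the start site, come from RefSeq on GRCm38.p6, whose table had an entry for 7 of the 10 members. They cover chr16:30283205-30283504 (minus strand) for Lrrc15, chr8:123185985-123186284 (plus strand) for Dpep1 and chr3:54360857-54361156 (plus strand) for Postn. Capitals mark the core of the promoter element bound by the TATA-binding protein, spelled TATAAA, and the E-box that bHLH factors such as TCF21 bind, spelled CANNTG, both searched on both strands.
Lrrc15: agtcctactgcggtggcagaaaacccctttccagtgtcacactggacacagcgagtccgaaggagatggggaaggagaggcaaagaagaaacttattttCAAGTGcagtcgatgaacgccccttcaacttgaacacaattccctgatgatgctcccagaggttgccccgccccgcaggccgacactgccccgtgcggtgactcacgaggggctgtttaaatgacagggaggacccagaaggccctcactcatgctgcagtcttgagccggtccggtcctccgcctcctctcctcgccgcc
Dpep1: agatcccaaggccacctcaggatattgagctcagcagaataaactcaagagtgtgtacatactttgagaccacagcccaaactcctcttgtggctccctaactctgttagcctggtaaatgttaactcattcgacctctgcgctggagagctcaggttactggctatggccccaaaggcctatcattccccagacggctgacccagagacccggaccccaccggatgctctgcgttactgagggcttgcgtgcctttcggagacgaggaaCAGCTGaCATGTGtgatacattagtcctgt
Postn: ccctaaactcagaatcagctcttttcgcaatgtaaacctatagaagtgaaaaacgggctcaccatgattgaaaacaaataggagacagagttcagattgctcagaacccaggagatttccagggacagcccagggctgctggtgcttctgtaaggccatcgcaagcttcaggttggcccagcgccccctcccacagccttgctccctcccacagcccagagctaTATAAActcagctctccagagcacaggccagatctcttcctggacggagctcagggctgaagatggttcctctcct

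TATAAA occurred in 1 of the 7 member windows, that of Postn, where it began 26 bases before the start site, and in 13.6% of all 32851 windows of this length. CANNTG was found in 5 of 7, with matches in Lrrc15 and Dpep1 but none in Postn or Tcf21, against 72.3% of all windows. The SMAD core CAGAC was held by 4 of 7 and by 49.6% of all windows, the TEAD core CATTCC by 1 of 7 and 14.7%, and the homeodomain core TAATTA by 0 of 7 and 5.29%. The Pi16 window, which held CANNTG and CAGAC, lay 1202 bases from the gene start in GENCODE M21. Postn had 2 windows, and the window nearer to its GENCODE M21 start was used. These letter matches describe the windows and say nothing about binding, and none of the motifs overlapped in the capitals printed.

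Among the activated genes, Lrrc15 and Meox1 were lower in the dioscin library, Postn and Cilp did not pass the size rule, and Cthrc1 was barely counted. Against the 8.78% of all genes called lower, 2 of 5 members were lower, and none was higher where 10.5% of all genes were. The median log2 ratio of the 4 measured genes was -0.56, beside 0.01 over all genes tested. Wherever the unmeasured Cthrc1 is placed, the median of all 5 lies between the values of Meox1 and Postn (log2 ratio -0.11). In RNA from heart tissue of many cell types, fewer cells of a type and less RNA of a gene per cell cannot be told apart.

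Lrrc15 encodes a leucine-rich repeat membrane protein that TGF-beta induces on activated fibroblasts (ENSMUSG00000052316.9; chromosome 16, 30269302 to 30283256, minus strand, GRCm38). It had 4 counts (0.234 CPM) in the dioscin library, against 224 counts (12.97 CPM) in the TAC library. The gene was thus nearly lost from counting in the dioscin library and passed the 1 CPM filter through the TAC library alone. Its level was 49.5-fold lower with dioscin (95% counting interval 21.4 to 205.5), a log2 ratio of -5.63, and 0.051% of the genes tested had a ratio as low or lower.

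Meox1 encodes a homeobox transcription factor that acts as a switch of fibroblast activation in the pressure-loaded heart (ENSMUSG00000001493.9; chromosome 11, 101877510 to 101894374, minus strand). It had 386 counts (22.6 CPM) in the dioscin library and 782 counts (45.3 CPM) in the TAC library. This places it just past the size rule, at 2.01-fold lower (1.78 to 2.27), and 8.90% of the genes tested had a ratio as low or lower.

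Postn encodes periostin, a secreted matrix protein that marks activated cardiac fibroblasts after injury (ENSMUSG00000027750.16; chromosome 3, 54361109 to 54391037, plus strand). It had 1206 counts (70.5 CPM) in the dioscin library and 1312 counts (76.0 CPM) in the TAC library, a ratio of 0.927 (0.857 to 1.00). With TMM scaling the upper bound of this interval lay at about 1, and Postn did not pass the size rule. Its log2 ratio of -0.11 was -0.12 with DESeq2 size factors, -0.19 by total counts, -0.31 without mitochondrial counts and -0.57 when scaled to the pan-fibroblast genes. Cilp encodes a secreted protein first described in cartilage that binds TGF-beta (ENSMUSG00000042254.14; chromosome 9, 65265180 to 65280605, plus strand). Its 433 counts (25.3 CPM) in the dioscin library and 331 counts (19.2 CPM) in the TAC library gave a ratio of 1.32 (1.14 to 1.53), the opposite side of 1 from Lrrc15 and Meox1. Scaled to the pan-fibroblast genes, the log2 ratio of Cilp was -0.06 in place of 0.40.

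Cthrc1 encodes a secreted collagen triple helix repeat protein of scar-forming fibroblasts (ENSMUSG00000054196.7; chromosome 15, 39076932 to 39087121, plus strand). It had 1 count (0.0584 CPM) in the dioscin library and 2 counts (0.116 CPM) in the TAC library. Both values lie under the level of 3 counts, which is 0.175 CPM in the dioscin library and 0.174 CPM in the TAC library, so no ratio is given and a difference was not detectable at this depth.

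Among the resident genes, Dpep1 and Scara5 were higher in the dioscin library and Pi16, Pdgfra and Tcf21 did not pass the size rule. Thus 2 of 5 were higher, where 10.5% of all genes were, and none was lower, where 8.78% were. All 5 passed the 1 CPM filter in both libraries, and their median log2 ratio was 0.69 beside 0.01 over all genes tested.

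Dpep1 encodes a membrane dipeptidase that cleaves glutathione conjugates and leukotriene D4 (ENSMUSG00000019278.5; chromosome 8, 123186242 to 123201812, plus strand). It had 2858 counts (167 CPM) in the dioscin library and 549 counts (31.8 CPM) in the TAC library. This was the highest ratio of the 10 genes, at 5.25 (4.79 to 5.76), and 2.14% of the genes tested had a ratio as high or higher. Scara5 encodes a scavenger receptor that takes up ferritin (ENSMUSG00000022032.14; chromosome 14, 65666403 to 65764826, plus strand). It had 647 counts (37.8 CPM) in the dioscin library and 167 counts (9.67 CPM) in the TAC library, a ratio of 3.90 (3.29 to 4.66).

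Pi16 encodes a secreted peptidase inhibitor that marks adventitial fibroblasts (ENSMUSG00000024011.17; chromosome 17, 29317680 to 29330593, plus strand). It had 3261 counts (190.5 CPM) in the dioscin library and 2042 counts (118 CPM) in the TAC library. The ratio of 1.61 (1.52 to 1.70) excluded 1 but stayed under 2, and 18.1% of the genes tested had a ratio as high or higher. An antisense gene covers 3.5% of the exonic length of Pi16, and the library kit does not mark strand.

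Pdgfra encodes the receptor by which PDGF ligands act on fibroblasts (ENSMUSG00000029231.15; chromosome 5, 75152292 to 75198215, plus strand). It had 804 counts (47.0 CPM) in the dioscin library and 579 counts (33.5 CPM) in the TAC library, a log2 ratio of 0.49, with an antisense gene over 4.5% of its exonic length. Tcf21 encodes the bHLH factor of the epicardial and fibroblast lineage (ENSMUSG00000045680.8; chromosome 10, 22817281 to 22820174, minus strand). It had 73 counts (4.26 CPM) in the dioscin library and 63 counts (3.65 CPM) in the TAC library. The interval of its ratio of 1.17 (0.823 to 1.66) held 1, and its log2 ratio of 0.22 became -0.24 when scaled to the pan-fibroblast genes. The general fibroblast receptor and the lineage factor thus differed less than Dpep1 and Scara5.

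**Figure D1:**
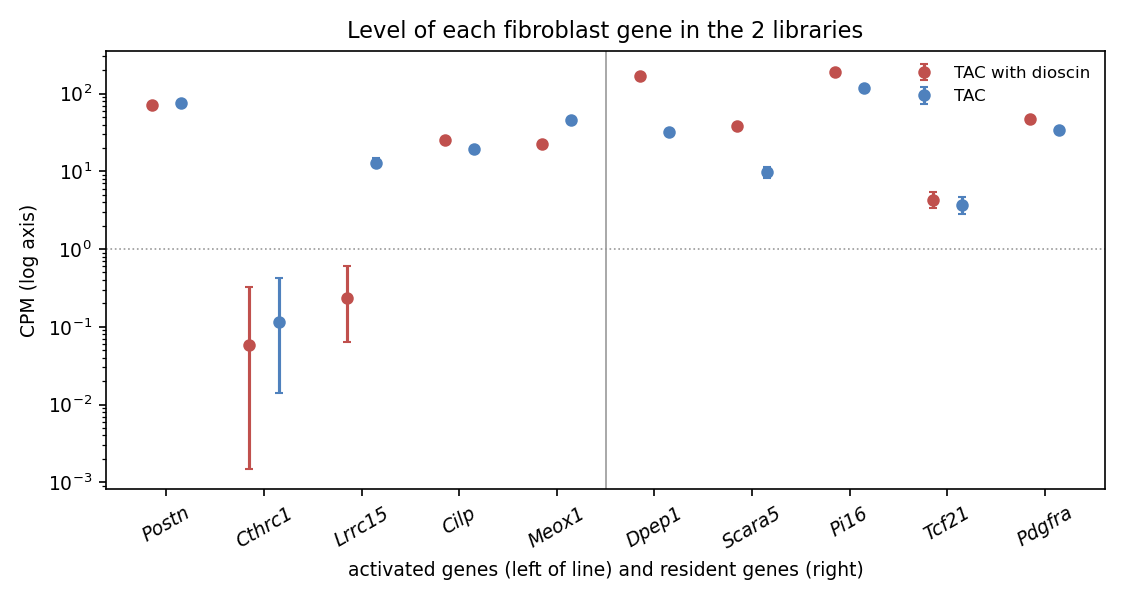
Level of each gene as CPM on a log axis, with the dioscin library (red, left of each pair) and the TAC library (blue), bars for the 95% Poisson counting interval, and a dotted line at 1 CPM. Cthrc1 lies under 1 CPM in both libraries and Lrrc15 only in the dioscin library, at 0.234 CPM against 12.97 CPM in the TAC library.

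**Figure D2:**
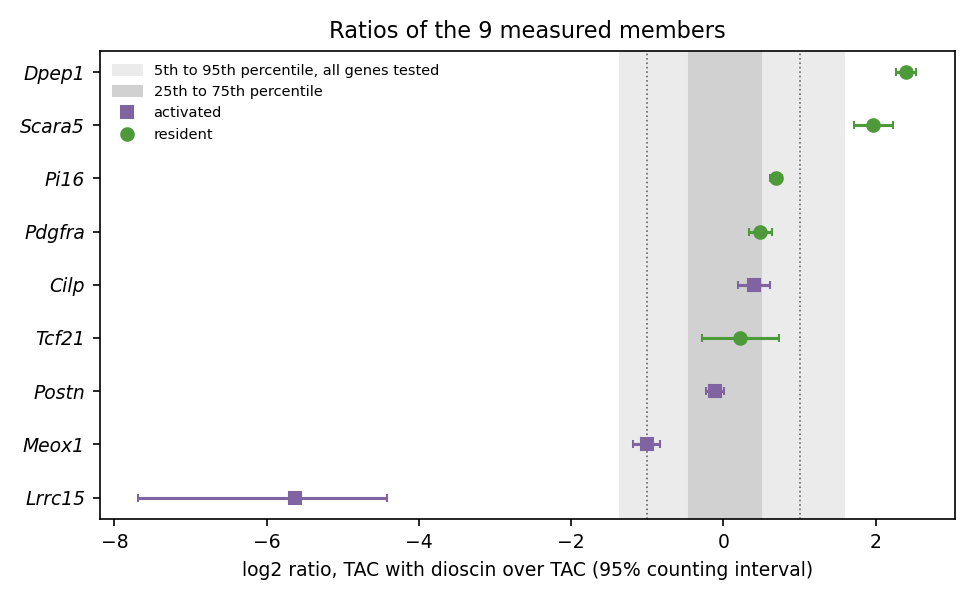
Log2 ratio (dioscin over TAC) for the 9 measured genes, with 95% counting intervals, dotted lines at 2-fold, and grey bands for percentiles of the 15697 genes tested. Dpep1 and Scara5 lie above the 95th percentile (1.58), Lrrc15 lies below the 5th (-1.36), and Postn, Tcf21, Cilp and Pdgfra lie between the 25th and 75th (-0.46 and 0.49).

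Levels of different genes were compared as CPM per kilobase of annotated exonic length. In the dioscin library Dpep1 stood highest at 67.2 CPM per kb (64.7 to 69.7), followed by Pi16 at 29.9, Meox1 at 10.1, Postn at 8.10, Scara5 at 6.20, Cilp at 5.95, Pdgfra at 4.69 and Tcf21 at 1.82 CPM per kb. Lrrc15 and Cthrc1 were last, at 0.0440 and 0.0367 CPM per kb. In this library the neighbours Scara5 and Cilp, and Lrrc15 and Cthrc1, did not differ beyond counting error.

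In the TAC library Meox1 stood first at 20.3 CPM per kb (18.9 to 21.8), with Pi16 at 18.6 (17.8 to 19.4) inside its counting error. Dpep1 followed at 12.8, Postn at 8.73, Cilp at 4.51, Pdgfra at 3.34, Lrrc15 at 2.44, Scara5 at 1.59, Tcf21 at 1.55 and Cthrc1 at 0.0727 CPM per kb. Scara5 and Tcf21 overlapped within counting error. An activated transcription factor gene thus headed the order in the TAC library and a resident enzyme gene in the dioscin library. The order depends on the length used: with the longest annotated transcript in place of the joined exons, 4 of 10 genes in the dioscin library and 2 of 10 in the TAC library kept their rank, Pi16 stood above Meox1 in the TAC library, and Dpep1 still stood first in the dioscin library.

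**Figure D3:**
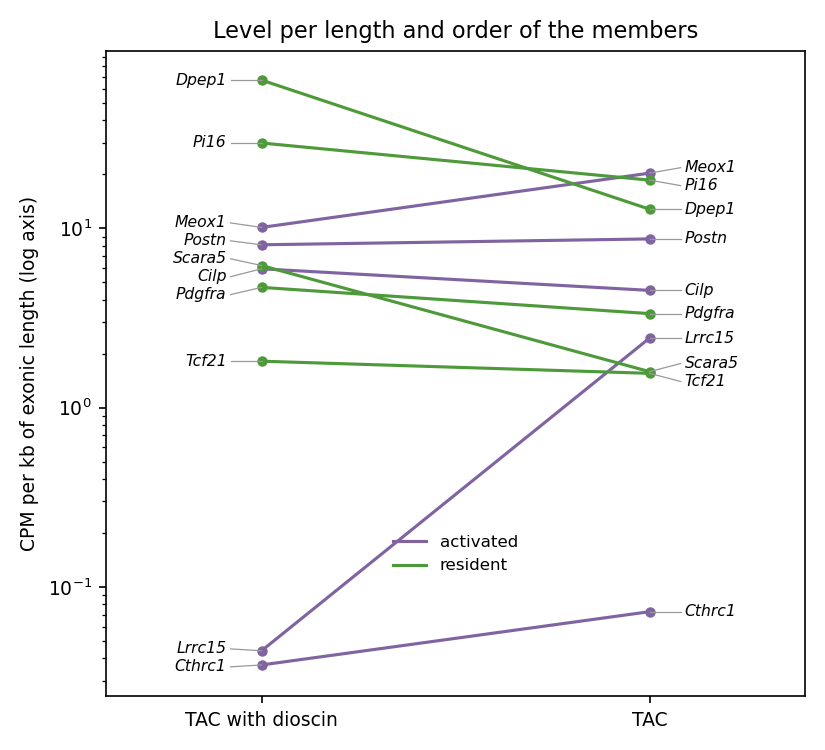
CPM per kilobase of exonic length (log axis) for each gene in the dioscin library (left) and the TAC library (right), with activated genes in purple and resident genes in green. Dpep1 heads the dioscin library and Meox1 the TAC library, and Scara5 stands at rank 5 in the dioscin library and rank 8 in the TAC library.

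Ratios between genes of the same library do not depend on how the libraries are scaled. Summed over their sets, activated genes had 2030 counts and resident genes 7643 in the dioscin library, against 2651 and 3400 in the TAC library. Activated genes therefore gave 20.99% of the counts of the 10 genes in the dioscin library (exact binomial interval 20.2 to 21.8) and 43.8% in the TAC library (42.6 to 45.1). The activated-to-resident ratio was 0.266 in the dioscin library and 0.780 in the TAC library, 2.94-fold lower with dioscin. Without Postn and Pi16, the most abundant member of each set, the ratios were 0.188 and 0.986, a 5.24-fold difference, so the size rests on which genes are summed.

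Of the 20 activated-to-resident pairs without Cthrc1, 17 had a counting interval wholly below 1, 3 held 1 and 0 lay above it, and 14 were at least 2-fold lower in the dioscin library. Meox1 to Dpep1 was 0.135 in the dioscin library and 1.42 in the TAC library. Postn to Pi16 was 0.370 and 0.643 in those libraries, 1.74-fold lower with dioscin. The pairs that held 1 were Postn to Tcf21, Cilp to Tcf21 and Cilp to Pdgfra. The 14 pairs were all those with Lrrc15 or Meox1, and those of Postn and Cilp with Dpep1 or Scara5. Pairs share genes and are not separate measurements.

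**Figure D4:**
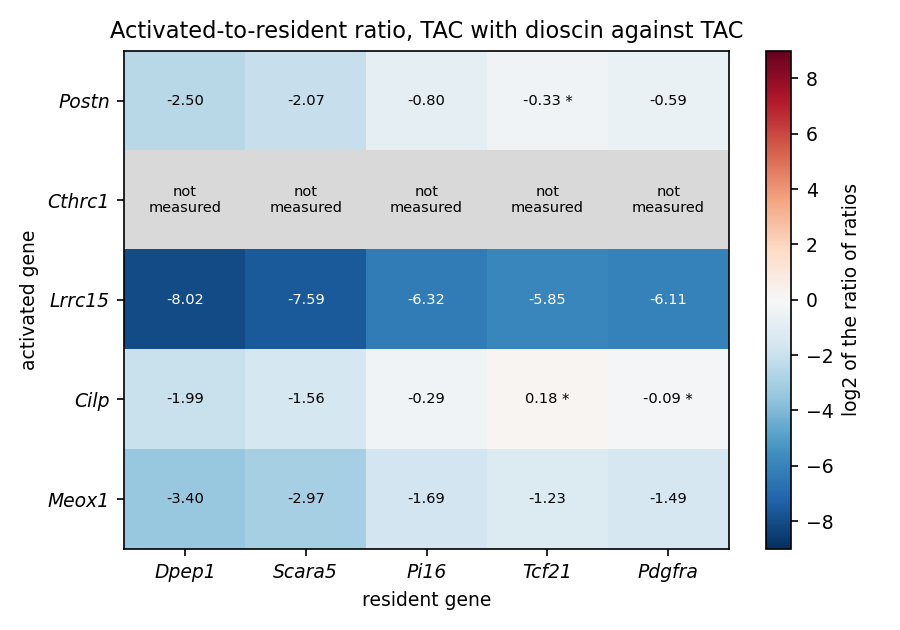
Log2 of the activated-to-resident ratio in the dioscin library over that in the TAC library, for each pair of an activated gene (rows) and a resident gene (columns), where negative values are lower with dioscin. An asterisk marks an interval that holds 0 on this scale, Cthrc1 was not measured, and values run from -8.02 for Lrrc15 to Dpep1 up to 0.18 for Cilp to Tcf21.

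Other genes of the activated state gave other counts. Of 24 other activated fibroblast and myofibroblast genes, all measured, 11 were higher in the dioscin library, 2 were lower and 11 did not pass. Of all genes, 10.5% were higher and 8.78% lower. The median log2 ratio of the list was 0.84 beside 0.01 over all genes tested. Leaving out the 5 that stand in another list, such as Comp and Thbs4 among the valve and tendon-like markers, 7 of 19 passed as higher and 2 as lower, and the median was 0.72. Scaled to the pan-fibroblast genes, 7 of 24 passed as higher and 2 as lower, and the median was 0.38. On that scale 5.13% of all genes were higher and 22.1% lower.

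Cilp2, the closest relative of Cilp, had 408 counts (23.8 CPM) in the dioscin library and 9 counts (0.521 CPM) in the TAC library, a ratio of 43.4 (23.9 to 100.7). Cilp2 passed the 1 CPM filter through the dioscin library alone, as did some other higher genes of the list. The cartilage matrix protein gene Comp had 25.7 CPM and 3.13 CPM in the same libraries, 8.15-fold higher with dioscin (6.19 to 11.1). Cilp2 and Comp are matrix genes of cartilage and tendon as well. Comp is itself 1 of the valve and tendon-like markers, so its ratio is part of the difference in that list. The part of such tissue in the values of Cilp2 and Comp was not tested. Lox, whose enzyme crosslinks collagen, had 36.6 CPM in the dioscin library and 7.47 CPM in the TAC library, a ratio of 4.88 (4.04 to 5.96), and Itgbl1, an integrin beta-like gene, was 3.60-fold higher (3.03 to 4.33). Acta2, the smooth muscle actin of myofibroblasts and vessel walls, had a ratio of 1.31 (1.24 to 1.38) and was the most abundant of the list at 193.6 CPM with dioscin and 148 CPM in TAC alone.

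Both lower genes of the list encode membrane proteases of activated fibroblasts and are named after their values were seen. Fap, fibroblast activation protein, had 7.30 CPM in the dioscin library and 16.2 CPM in the TAC library, 2.22-fold lower (1.79 to 2.76). Adam12 had 5 counts in the dioscin library and 32 in the TAC library, 5.86-fold lower (2.45 to 20.9). It passed the 1 CPM filter through the TAC library alone, at 0.292 CPM in the dioscin library and 1.85 CPM in the TAC library.

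Of 22 other resident fibroblast genes, all measured, 9 were higher, 1 was lower and 12 did not pass. Of all genes, 10.5% were higher and 8.78% lower. The median log2 ratio of the resident list was 0.79. The difference between the medians of the other activated and the other resident genes was 0.05, beside -1.24 for the members, and neither depends on scaling beyond the added pseudocount. The value of 0.05 includes genes that also stand in other lists, 5 of the activated and 2 of the resident genes. Inmt, a methyltransferase, had 48.5 CPM in the dioscin library and 6.72 CPM in the TAC library, a ratio of 7.20 (5.94 to 8.85). Complement C3 was 4.38-fold higher (4.15 to 4.62), decorin, Dcn, 4.09-fold (3.96 to 4.23) and fibulin-1, Fbln1, 3.66-fold (3.33 to 4.03). The actin-severing gelsolin, Gsn, was the most abundant of the list, at 1900 CPM in the dioscin library and 665.6 CPM in the TAC library. Col15a1, a basement membrane collagen named after its value was seen, was the lower gene, at 29.6 CPM with dioscin and 91.4 CPM in TAC alone.

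Of 14 genes listed for Pi16-type adventitial fibroblasts, 7 passed as higher and 0 as lower, against 10.5% and 8.78% of all genes. Whether the listed genes are specific to these cells was not tested, and Fn1, 1 of the 7, also stands among the other activated genes. The median log2 ratio of the 14 was 1.04. Igfbp6, an IGF-binding protein, had 101.8 CPM in the dioscin library and 11.7 CPM in the TAC library, a ratio of 8.69 (7.52 to 10.1). Dpp4, a surface peptidase of these cells, was 4.60-fold higher (3.49 to 6.25), Opcml 5.04-fold (2.90 to 9.96) and the guidance ligand Sema3c 3.19-fold (2.49 to 4.15). Opcml passed the 1 CPM filter through the dioscin library alone, at 0.811 CPM in the TAC library. Limch1, the most abundant at 152 CPM with dioscin and 113 CPM in TAC alone, had a ratio of 1.34 (1.27 to 1.43). The log2 ratio of Pi16 itself, 0.69, lay under the median of this list. On the pan-fibroblast scale 4 of the 14 were higher and 0 lower, against 5.13% and 22.1% of all genes.

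The 5 pan-fibroblast genes split. Dcn and Lum, small leucine-rich proteoglycans that bind collagen fibrils, were higher (Lum 3.13-fold, 2.79 to 3.54), while Col1a2 had a ratio of 1.38 (1.29 to 1.48) and Col3a1 0.797 (0.762 to 0.834). Col1a1, named to complete the list, had a ratio of 1.05 (0.966 to 1.14). The median log2 ratio of the 5 genes, 0.46, was the value of Col1a2, in a range from -0.33 to 2.03. This median is the shift that scaling to the 5 genes takes from every gene. On that scale 2 of 5 resident members were higher, where 5.13% of all genes were, and 2 of 5 activated members were lower, where 22.1% of all genes were.

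Of 6 PDGF ligand and receptor genes besides Pdgfra, the size rule called 2 higher and 0 lower, against 10.5% and 8.78% of all genes. The median log2 ratio of the 6 was -0.15. Pdgfc, a ligand of PDGFR-alpha, had 86 counts in the dioscin library and 9 in the TAC library, a ratio of 9.18 (4.85 to 21.8), and Pdgfrl was 4.70-fold higher (2.83 to 8.65). Both passed the 1 CPM filter through the dioscin library alone. In the TAC library Pdgfc was at 0.521 CPM and Pdgfrl at 0.984 CPM. The ligand Pdgfb had a ratio of 0.612 (0.565 to 0.663) and the pericyte receptor Pdgfrb 0.656 (0.614 to 0.699), neither past the size rule. On the pan-fibroblast scale 2 of these 6 genes were lower and 2 higher, against 22.1% and 5.13% of all genes.

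Of 16 TGF-beta genes, the size rule called 4 higher and 0 lower, against 10.5% and 8.78% of all genes. The median log2 ratio of the 16 was 0.31 and became -0.16 when scaled to the pan-fibroblast genes. On that scale 2 of the 16 were higher and 0 lower, against 5.13% and 22.1% of all genes. Ccn2, a matricellular target of TGF-beta, was at 714.6 CPM in the dioscin library and 58.7 CPM in the TAC library, 12.2-fold higher (11.4 to 13.0), and an opposite-strand gene covers 23.2% of its exonic length. Tgfbr2, the type II receptor, was 2.14-fold higher (1.93 to 2.37) and Ltbp1, which holds latent TGF-beta in the matrix, 2.06-fold (1.85 to 2.30). On the pan-fibroblast scale Tgfbr2 and Ltbp1 no longer passed as higher. Ccn2, Tgfbr2 and Ltbp1 lay opposite in direction to Lrrc15, itself a known TGF-beta target.

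Scara5 belongs to ferritin uptake, and of 9 iron and ferritin genes, 8 were measured. By the size rule 3 of the 8 were higher and 1 lower, against 10.5% and 8.78% of all genes. The median log2 ratio of the 8 was 0.57. Fth1, the ferritin heavy chain, was at 1758 CPM in the dioscin library and 760.6 CPM in the TAC library, 2.31-fold higher (2.26 to 2.36). Ftl1, the light chain, had a ratio of 1.90 (1.81 to 1.99), with an opposite-strand gene over 26.5% of its exonic length. Slc40a1, the iron exporter ferroportin, was 3.54-fold higher (2.88 to 4.42). Tfrc, the transferrin receptor, was at 16.1 CPM with dioscin and 56.6 CPM in TAC alone, 3.50-fold lower (3.07 to 4.02). Fth1 and the ferritin receptor gene Scara5 were thus higher in the library in which Tfrc was lower. On the pan-fibroblast scale 1 gene of the list was higher and 1 lower, against 5.13% and 22.1% of all genes. Fth1 no longer passed as higher there. Many cell types of the heart express the genes other than Scara5.

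**Figure D5:**
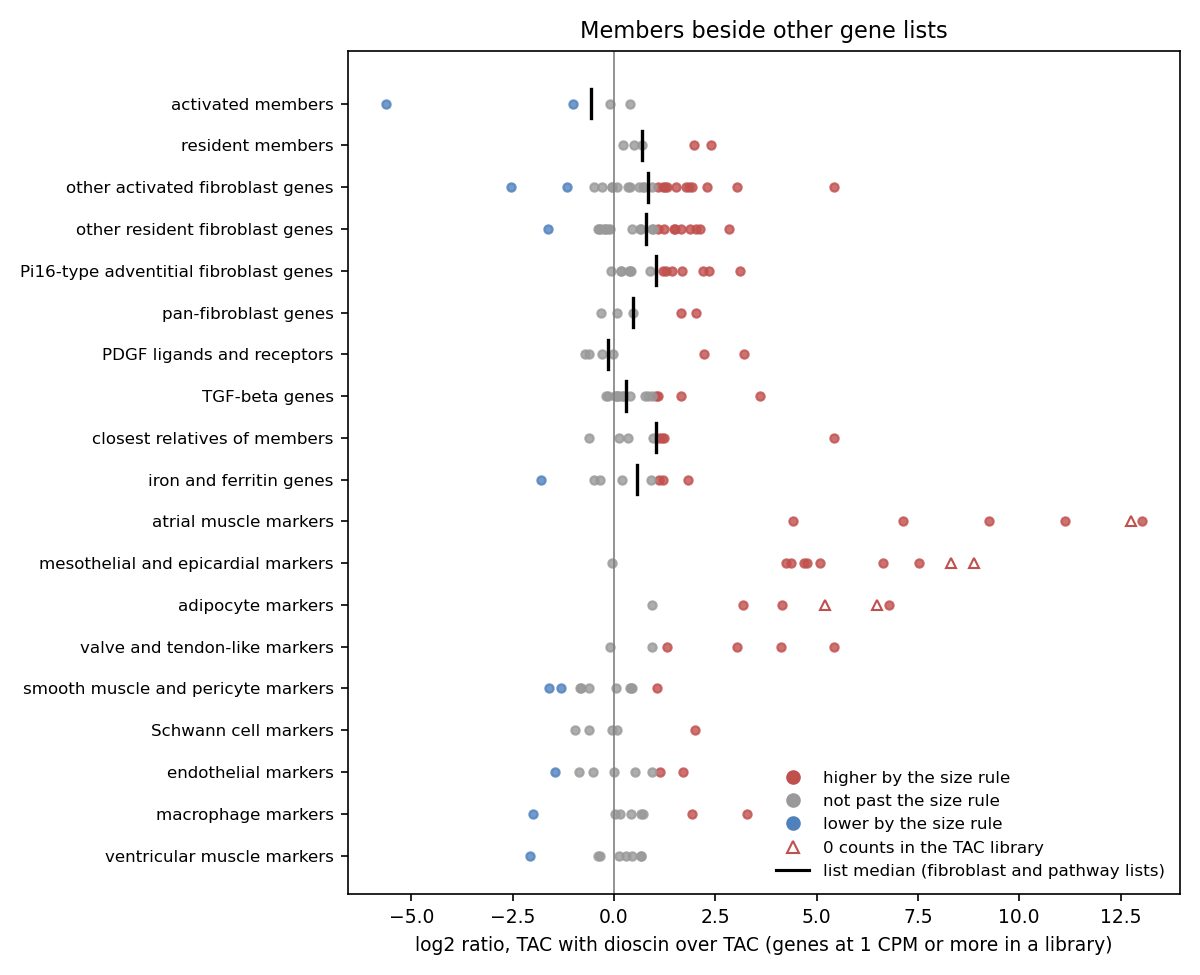
Log2 ratio (dioscin over TAC) of each gene at 1 CPM or more in a library, by list, coloured by the size rule, with black bars for list medians and open triangles for genes at 0 counts in the TAC library. Of the 4 measured activated members 2 lie past 2-fold lower and 0 past 2-fold higher, the median of the 24 other activated genes is 0.84, and atrial and mesothelial markers reach farthest right.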

How the data were processed

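Total RNA of frozen hearts, taken with Trizol, went into libraries made with an Illumina TruSeq kit that does not mark strand, per the labels' protocols. The files deposited by the authors hold unnormalized counts per gene identifier. HISAT2 2.1.0, HTSeq and mm10 are named in the submitters' processing notes, while annotation release and strand setting are not given in the sources used here. Summary lines that name no gene (71.5% of all counts in the dioscin file and 73.8% in the TAC file) were left out. Of 55401 identifiers, 55141 matched GENCODE M21 on GRCm38.

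Scaling used TMM in edgeR 4.0.16 (R 4.3.3). Ratios are dioscin over TAC with a pseudocount of 0.5 scaled to library size, and intervals are exact 95% Clopper-Pearson intervals (scipy 1.17.1). With 1 library per group there was no test. The code was tested on simulated data. Members and gene lists were chosen with earlier results of these data known. Named are all members and, from each other list, up to 4 genes whose interval bound lay farthest from 1, plus the most abundant, unless stated otherwise. The result of 1 gene that this rule names is not reported here. With 2 libraries no gene could be ranked as most like a member. Alternatives were other scalings, pseudocounts, level filters, fold minimums, lengths and summaries. Promoter motifs and a length and GC correction were chosen after the data were seen.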

Additional observations from a re-analysis of the deposited data

How the results depend on the processing

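The calls of the members (Lrrc15 and Meox1 lower, Dpep1 and Scara5 higher) held under every scaling, level filter and length or GC correction tried, and changed with the fold minimum and, for Meox1, the pseudocount (log2 ratio -0.997 at a pseudocount of 5, just under 2-fold). At 3-fold, 1 activated member was lower, because Meox1 no longer passed, with 4.98% of all genes higher and 3.53% lower. At 1.5-fold, Pi16 also counted as higher, with 20.3% of all genes higher and 17.9% lower. The 5 CPM minimum left 5.84% of all genes lower. Scaling by total counts shifted every log2 ratio by -0.08 and gave a resident median of 0.61. Scaling without mitochondrial counts shifted them by -0.21, with an activated median of -0.76, a resident median of 0.48 and 13.8% of genes lower. Scaling to the pan-fibroblast genes shifted them by -0.46, with medians of -1.02 and 0.22, 5.13% of genes higher and 22.1% lower. The correction for exonic length and GC content, chosen after seeing the data, gave a resident median of 0.84. Means in place of medians were -1.59 for activated and 1.15 for resident members, a difference of -2.74, with Lrrc15 at -5.63 in the first. The activated-to-resident ratio of the dioscin over the TAC library was 0.341 in summed counts, 0.232 per kilobase, 0.191 without Postn and Pi16, and 0.309 as the median of the 25 pairs, Cthrc1 included. With the longest transcript as length, 4 members in the dioscin library and 2 in the TAC library kept their rank among 10. Of 63 recomputed single-gene ratios, 49 stayed inside their counting interval and 14 moved outside it, and Cilp and Tcf21, neither called, changed sign when scaled to the pan-fibroblast genes. Few counts limit Cthrc1, Lrrc15 in the dioscin library, and Tcf21. No paired analysis was possible because each group has 1 library.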

Other observations

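The closest relatives of the members were mostly higher or did not pass. Of 10 relatives, 8 were measured, of which the size rule called 4 higher and 0 lower, against 10.5% and 8.78% of all genes. The median log2 ratio of the 8 was 1.03. Tgfbi, the relative of Postn, had 860 counts in the dioscin library and 380 in the TAC library, a ratio of 2.28 (2.02 to 2.58), whereas Postn had 0.927. Among scavenger receptor genes related to Scara5, Colec12 was 2.35-fold higher (1.99 to 2.80) and Scara3 2.15-fold, at 124 counts in the dioscin library and 58 in the TAC library. Meox2, the relative of Meox1 and named after its value was seen, had a ratio of 1.27 (1.12 to 1.45), against 0.498 for Meox1. On the pan-fibroblast scale 1 relative was higher and 1 was lower, against 5.13% and 22.1% of all genes. Tgfbi, Colec12 and Scara3 no longer passed as higher there.

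Smooth muscle and pericyte markers gave sums of 1486 CPM in the dioscin library and 1539 CPM in the TAC library. A large part of both sums was Rgs5, named after its values were seen, at 766.9 CPM in the dioscin library and 742.4 CPM in the TAC library. Of the 10 markers 1 was higher and 2 were lower, against 10.5% and 8.78% of all genes. The lower genes were the pericyte proteoglycan Cspg4, 3.02-fold lower with dioscin (2.65 to 3.44), and Notch3, 2.49-fold lower (2.23 to 2.79). The higher gene was Cnn1, calponin of contractile smooth muscle, at a ratio of 2.08 (1.65 to 2.65). Abcc9, a pericyte potassium channel subunit, had a ratio of 0.570 (0.531 to 0.612). The remaining markers, also named after their values were seen, lay on both sides of 1 and did not pass the size rule. Acta2, Tagln and Myh11 had ratios of 1.31, 1.34 and 1.36, and Kcnj8 and Pdgfrb 0.559 and 0.656. An opposite-strand gene covers 62.4% of the exonic length of Tagln. On the pan-fibroblast scale 5 of the 10 markers were lower, where 22.1% of all genes were, and none was higher, where 5.13% were.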
